A study of Danio rerio with 9 samples.

Results

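Heat-shock proteins and chaperones are the genes that fold newly made proteins, refold damaged ones and move proteins into organelles. The set described here holds every gene of the array whose RefSeq symbol begins with hsp or dnaj, and the 8 subunit genes of the cytosolic chaperonin CCT (tcp1, cct2, cct3, cct4, cct5, cct6a, cct7 and cct8). The proteoglycan gene hspg2 shares the prefix and was left out. Of 13443 genes that the array could be paired with by symbol, 79 met this rule, with 185 of the 43603 probes. The RefSeq table lists 99 such symbols, so 79 is not the whole family. The rule uses symbols and no measured value, though it was set with earlier results of these data known.

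RNA from the whole body of zebrafish larvae at 6 dpf was measured on 9 Agilent arrays with 1 colour. Larvae were WT, zPer2 zCry1a double KO (DKO) or zPer2 zCry1a zCry2a triple KO (TKO), so all knockout larvae lacked the light-induced clock genes zPer2 and zCry1a. Each genotype was raised without light and then stayed dark, received 3-h light or received 12-h light, with 1 array for each of these 9 conditions. For DKO larvae the study places sampling at 12 h after light onset, which means that the 3-h light larvae had returned to darkness. DKO fish came from a cross of lines made with TALEN nucleases, and TKO fish were made by injecting Cas9 mRNA and a guide RNA against zCry2a into DKO embryos. Whether the TKO larvae on the arrays were injected themselves or were offspring is not stated. The number of larvae behind an array is not stated, and nothing says that arrays of 1 genotype came from separate clutches.

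Chaperones work in families with a division of labour. HSP70 proteins bind unfolded stretches of other proteins, J-domain proteins (the DNAJ families) deliver clients to HSP70, HSP90 proteins finish the folding of selected clients, and the small heat-shock proteins hold unfolded proteins without using ATP. Chaperonins are closed barrels, one in mitochondria (hspd1 and hspe1) and one in the cytosol (CCT). Many members are raised by heat or by unfolded protein through heat-shock factors, and the endoplasmic reticulum has its own set, raised by the unfolded protein response.

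Each level below is the mean over a gene's probes of the log2 signal minus the array's 75th percentile. Levels of different genes or probes are not comparable, since probes differ in how strongly they bind. Of the 79 members, 25 have 1 probe, so agreement between probes cannot be seen for them. Among these are hspe1, hspb2, hspb6, hspb9, dnajb5, dnajb6b, dnajc7 and dnajc19. A feature (a gene, or a probe with no symbol) was tested where a probe stood well above background on at least 3 arrays, which left 27228 features. Of the members, 78 passed, all of them on 9 of 9 arrays, and hspa12a.3 was at background on every array. Differences come from limma with additive terms for genotype and lighting, and a member counts as called where p, adjusted over all features by the Benjamini-Hochberg method, is under 0.05. With 1 array a condition, the 4 residual degrees of freedom measure how far these arrays depart from the additive terms. Noise and any difference in light response between genotypes are mixed there, and nothing is stated on separate clutches.

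The 75th percentile of signal lay between 547 and 636, and 85.9% to 89.8% of spots stood well above background. Repeated spots of a probe differed by an SD of 0.14 (log2). The TKO dark array stood apart from the others. It had a loading of 0.82 on a first principal component that held 46.1% of the variance, against -0.36 to 0.16 for the other 8 arrays. It was the highest array for 24.4% of members and 22% of all features, and the lowest for 28.2% and 42.3%. Each genotype was on a slide of its own, so genotype cannot be told apart from slide. The dark array was at the first place on every slide, the 3-h light array at the second and the 12-h light array after them, so lighting cannot be told apart from place on the slide. The signal of zPer2 ranged from -5.90 to -2.00 in WT larvae, from -5.91 to -1.68 in DKO larvae and from -5.92 to -1.71 in TKO larvae. For zCry1a the ranges were -0.48 to 1.68, -1.21 to 1.1 and -1.32 to 0.99, and for zCry2a (cry3a in RefSeq) -0.29 to 1.83, -0.36 to 1.36 and -1.15 to 0.84. A coding mutation need not remove a transcript, so these signals do not check the genotypes.

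The first question was which chaperones differed between larvae given 12-h light and larvae kept dark. Of the called members, 4 of 11 chaperones of the endoplasmic reticulum, both genes of the mitochondrial chaperonin and the small heat-shock proteins hspb1 and hspb2 were lower at 12-h light, by 1.23-fold to 1.99-fold. Of 78 members, 15 were called, 3 higher and 12 lower. That is 19.2% of the members against 22.8% of all features, so members changed about as often as any gene. The direction was less alike, since 15.4% of members and 8.41% of all features were lower, and 3.85% and 14.4% were higher. The median difference was -0.04 over the members and 0.11 over all features. With quantile normalization the medians were -0.06 and 0.05. There 2 members were called higher and 17 lower, beside 2986 and 2710 of all features. Without the TKO dark array the medians were -0.002 and 0.07. These shares, counts and medians are descriptions with no test. Counted by overlap, 22 members had every 12-h light array below every dark array and 8 had every one above, or 28.2% and 10.3%, against 11.7% and 17.8% of all features.

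**Figure D1:**
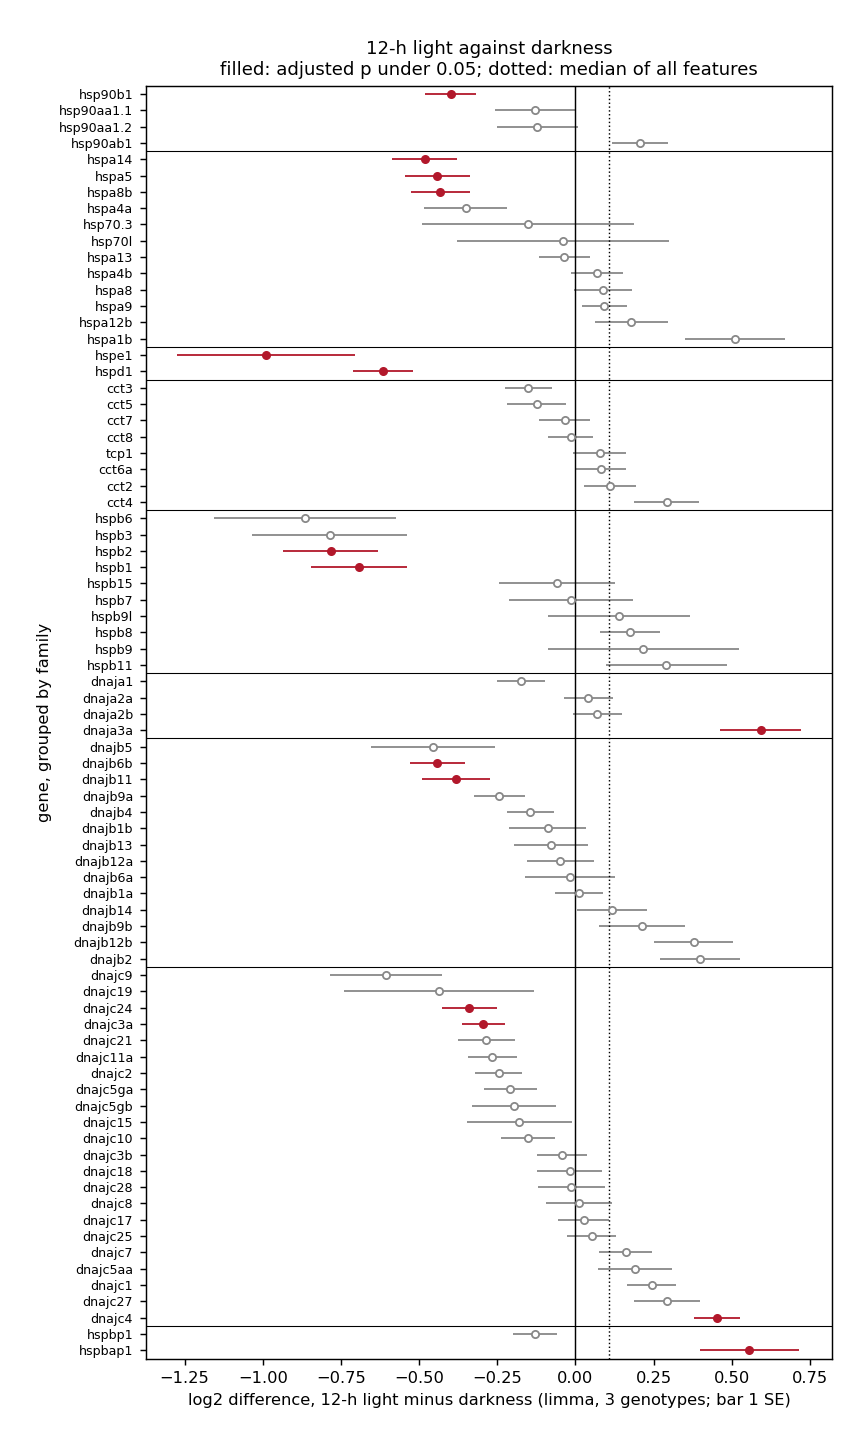
Log2 difference between 12-h light and darkness for each of the 78 members, grouped by family, with limma's standard error as the bar. Filled points are the 15 called members, from -0.99 (hspe1) to 0.59 (dnaja3a), and the dotted line marks the median of all features, 0.11.

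Of the 11 endoplasmic reticulum members, 4 were called, all lower, beside 22.8% of all features called and 8.41% called lower. The best known is hspa5, or BiP, the HSP70 of the endoplasmic reticulum and a regulator of its unfolded protein response. Its level was 1.30 in the dark, 0.85 after 3-h light and 0.91 after 12-h light in WT larvae, 1.38, 0.86 and 0.68 in DKO larvae, and 1.26, 0.87 and 1.03 in TKO larvae. All 3 dark arrays were above all 6 light arrays. At 12-h light the difference was -0.44 (SE 0.10, limma adjusted p = 0.0283), or 1.36-fold lower, and each of its 6 probes was lower. The HSP90 of the same compartment, hsp90b1, had 2.21, 1.83 and 1.83 in WT, 2.18, 1.79 and 1.65 in DKO, and 2.12, 1.75 and 1.83 in TKO larvae, in the order dark, 3-h and 12-h light. Again no light array reached the lowest dark array, and the difference was -0.40 (SE 0.08, limma adjusted p = 0.0192).

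Both J-domain partners of hspa5 that were called also fell. The level of dnajb11, a J-domain protein of the endoplasmic reticulum lumen, was -2.31 and -2.80 in WT (dark, then 12-h light), -2.07 and -2.58 in DKO, and -2.22 and -2.36 in TKO larvae. The difference was -0.38 (SE 0.11, limma adjusted p = 0.0478). For dnajc3a, which protects against stress of that compartment in mammals, the levels were 1.36 and 1.07, 1.17 and 0.87, and 1.23 and 0.95, with a difference of -0.29 (SE 0.07, limma adjusted p = 0.0293). In both genes the dark and 12-h light arrays did not overlap. Both were picked after their values were seen, as were hspa8b and dnajc24 below and the uncalled genes of this list. The other 7 genes of this list (hspa13, dnajb9a, dnajb9b, dnajc1, dnajc3b, dnajc10 and dnajc25) were not called, with differences from -0.24 (dnajb9a) to 0.24 (dnajc1). Without the TKO dark array dnajb9b (limma adjusted p = 0.0391) and dnajc1 (limma adjusted p = 0.0303) passed, both higher.

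The endoplasmic reticulum stress genes outside the family moved in both directions. Of 29 on the array, 15 were called at 12-h light, 10 lower and 5 higher, beside 22.8% of all features (8.41% lower, 14.4% higher). The folding helpers manf (-1.02, SE 0.20, limma adjusted p = 0.0186), creld2 (-0.79, SE 0.15, limma adjusted p = 0.0174) and the disulphide isomerase pdia4 (-0.71, SE 0.12, limma adjusted p = 0.0121) were lower. The genes chac1 (0.90, SE 0.11, limma adjusted p = 0.00448), ddit3 (0.79, SE 0.11, limma adjusted p = 0.00694) and trib3 (0.71, SE 0.08, limma adjusted p = 0.00426), known targets of the kinase branch of the response, were higher. The median of the list was -0.17. The transcription factor xbp1 (-0.43) and asns (-0.36), another target of the kinase branch, were also lower; these 2 were named after their values were seen.

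Both genes of the mitochondrial chaperonin were called lower. The gene hspd1 encodes the barrel, HSP60, and hspe1 its lid, HSP10; in the GRCz12tu annotation they are neighbours with 0 protein-coding genes between them. The level of hspd1 was -1.45, -1.80 and -1.93 in WT (dark, 3-h and 12-h light), -1.03, -1.53 and -1.88 in DKO, and -1.29, -1.73 and -1.81 in TKO larvae. It was lowest at 12-h light in every genotype, and the difference was -0.62 (SE 0.10, limma adjusted p = 0.00911), or 1.53-fold. The level of hspe1 was 3.47, 2.90 and 3.01 in WT, 3.34, 3.02 and 2.61 in DKO, and 4.73, 2.95 and 2.95 in TKO larvae. The TKO dark array was far above the rest. With it the difference was -0.99 (SE 0.28, limma adjusted p = 0.0485), and without it -0.57 (limma adjusted p = 0.0292). Among the other mitochondrial members, the J-domain gene dnaja3a rose, with 0.56, 1.11 and 1.1 in WT, 0.57, 0.83 and 0.96 in DKO, and -0.08, 0.86 and 0.77 in TKO larvae, a difference of 0.59 (SE 0.13, limma adjusted p = 0.0239). Mitochondrial HSP70, hspa9, was not called (0.09, SE 0.07, limma adjusted p = 0.359). Thus 3 of 7 mitochondrial members were called, in opposite directions, beside 22.8% of all features.

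**Figure D2:**
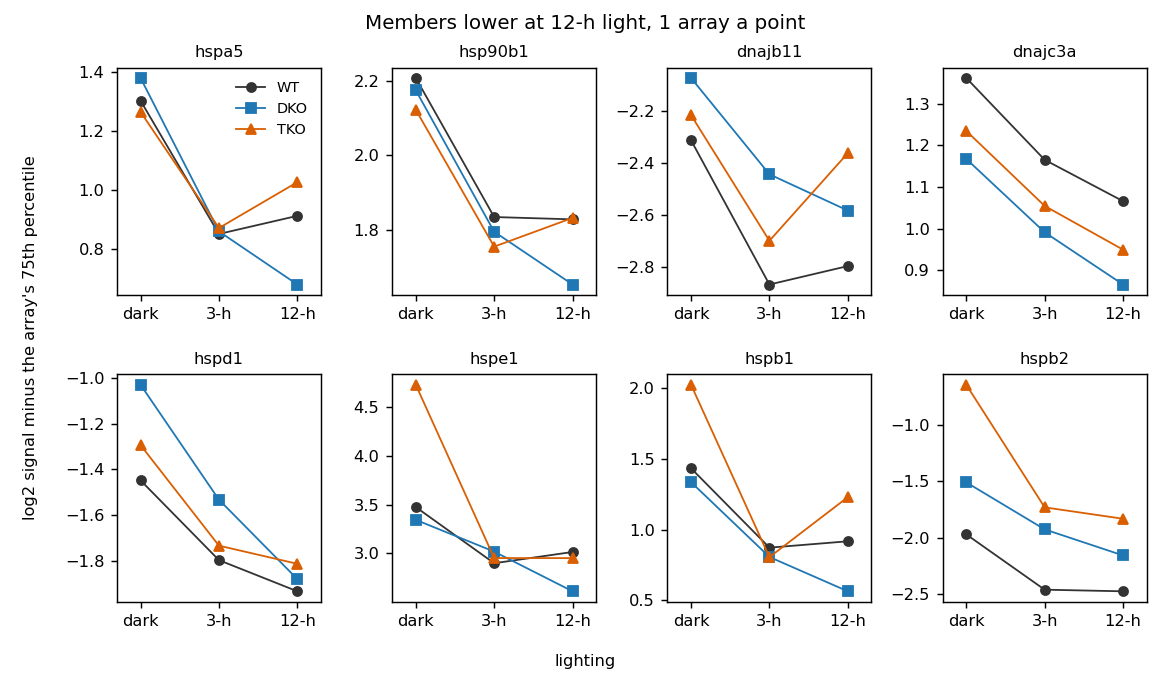
Level on each of the 9 arrays (log2 signal minus the array's 75th percentile) for 8 members called lower at 12-h light, by lighting on the horizontal axis and genotype by colour and symbol, 1 array per point. In hspa5 the 3 dark arrays lie at 1.26 to 1.38 and the 6 light arrays at 0.68 to 1.03, and in hspe1 the TKO dark array lies alone at 4.73.

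Among the 10 small heat-shock proteins, 2 were called, both lower, a count near the 22.8% of all features called. The stress-inducible hspb1 (HSP27) had 1.43, 0.87 and 0.92 in WT, 1.34, 0.81 and 0.56 in DKO, and 2.02, 0.81 and 1.23 in TKO larvae. The dark arrays were all above the light arrays, with a difference of -0.69 (SE 0.15, limma adjusted p = 0.0247). For hspb2, which is muscle-enriched in mammals, the levels were -1.97, -2.46 and -2.48, -1.51, -1.93 and -2.16, and -0.64, -1.73 and -1.83. Every genotype fell, while the groups overlapped because genotypes differed, and the difference was -0.78 (SE 0.15, limma adjusted p = 0.017). The other small heat-shock genes did not pass, among them hspb6 (-0.87, SE 0.29, limma adjusted p = 0.0709) and hspb3 (-0.79, SE 0.25, limma adjusted p = 0.0604). Without the TKO dark array both passed, at limma adjusted p of 0.0179 and 0.0366.

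The list of cytosolic heat-shock genes holds heat-inducible genes, the usual readout of heat shock, and constitutive ones such as hspa8 and hsp90ab1. Of its 14 genes only hspb1 was called, beside 22.8% of all features. The inducible HSP70 genes hsp70l (-0.04, SE 0.34, limma adjusted p = 0.936) and hsp70.3 (-0.15, SE 0.34, limma adjusted p = 0.753) had standard errors over 3 times those of hspa5. For the HSP40 genes dnajb1a and dnajb1b the differences were 0.01 (SE 0.08, limma adjusted p = 0.913) and -0.09 (SE 0.12, limma adjusted p = 0.606). For constitutive HSC70, hspa8, it was 0.09 (SE 0.09, limma adjusted p = 0.486). The HSP70 gene hspa1b was at 0.51 (SE 0.16, limma adjusted p = 0.0607). The remaining lower calls were the HSP70-related genes hspa14 (-0.48, SE 0.10, limma adjusted p = 0.0232) and hspa8b (-0.43, SE 0.09, limma adjusted p = 0.0232), the anti-aggregation gene dnajb6b (-0.44, SE 0.09, limma adjusted p = 0.0185) and dnajc24 (-0.34, SE 0.09, limma adjusted p = 0.0378). Higher calls were dnajc4 (0.45, SE 0.07, limma adjusted p = 0.00991), with every 12-h light array above every dark array, and hspbap1 (0.56, SE 0.16, limma adjusted p = 0.0469), of whose 3 probes 1 was well above background on only 5 of 9 arrays and another on 7, and whose call was lost without the TKO dark array (limma adjusted p = 0.111).

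The CCT chaperonin, which folds actin and tubulin, had 0 of 8 subunits called at 12-h light, beside 22.8% of all features. Differences ran from -0.15 (cct3) to 0.29 (cct4, SE 0.10, limma adjusted p = 0.0836). At 3-h light all 8 were positive, from 0.004 to 0.32, with a median of 0.14 beside 0.11 for all features. None of these was called. The sign did not hold in each genotype. From dark to 3-h light cct5 went from 1.86 to 1.84 in WT and from 1.96 to 1.86 in DKO larvae, and its TKO dark array was the lowest. In DKO larvae cct3 (2.63 to 2.55) and cct7 (2.88 to 2.87) fell too, while the other subunits rose in both genotypes.

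Heat-shock factors and cochaperones outside the family were called in 8 of 41 genes at 12-h light, 2 higher and 6 lower. Over all features the share called was 22.8%, so this count lay near it. The HSP90 cochaperones ptges3b (p23; -1.0, SE 0.17, limma adjusted p = 0.0112) and ahsa1a (AHA1; -0.75, SE 0.11, limma adjusted p = 0.00848) were lower, as was unc45b, which folds muscle myosin with HSP90 (-0.73, SE 0.17, limma adjusted p = 0.0283). The higher genes were the ubiquitin ligase stub1 (0.36, SE 0.09, limma adjusted p = 0.0287) and unc45a (0.53, SE 0.15, limma adjusted p = 0.0469; 0.0748 without the TKO dark array). Of 14 early stress genes tested, 3 were called, also near the share of all features. All were higher: hmox1a (1.28), gadd45ba (0.95) and atf3 (0.55).

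Markers of some cell types were called at 12-h light as well, where 22.8% of all features were called. Of 5 red blood cell markers, 4 were called lower at 12-h light, and their summed level was 7.17 to 7.60 on the dark arrays and 6.18 to 6.38 on the 12-h light arrays. Of 16 skeletal muscle markers, 2 were called lower (10.61 to 10.77 and 10.52 to 10.67), of 8 exocrine pancreas markers 3 higher (10.04 to 10.14 and 10.22 to 10.51), and of 8 liver markers 2 lower (8.08 to 8.72 and 7.73 to 8.12). The muscle count lay below the share of all features and the liver count near it, and in both lists the summed levels overlapped. No marker of these lists that was on the array was at background on all arrays. Their part in the chaperone differences was not tested. In RNA from whole larvae, fewer cells of a type and less RNA per cell cannot be told apart.

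These calls stood near the threshold, with adjusted p up to 0.0485, and depended on single arrays. The count of 15 became 0 without the DKO 12-h light array (background 3.77%), 4 without TKO 12-h light (6.69%), 5 without WT dark or WT 3-h light (11.4% each), 6 without WT 12-h light (9.42%), 7 without DKO dark (15.6%) and 9 without DKO 3-h light (15.9%). Without the TKO dark array it was 22, 4 higher and 18 lower (25.6%). The share of all features called thus moved as well. The calls kept most often with an array left out were dnajc4 and hspd1, each in 8 of 9. Of the other endoplasmic reticulum, mitochondrial chaperonin and small heat-shock calls, hspb2 was kept in 7, hspb1 in 5 and hsp90b1 in 3. The calls of hspa5 and dnajb11 were kept in 2, and those of dnajc3a and hspe1 in 1.

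The second question was whether 3-h light gave the same. Of 78 members 4 were called, 1 higher and 3 lower, or 5.13% against 6.64% of all features (3.89% higher, 2.75% lower). The split became 0 higher and 6 lower with each array scaled on its median, beside 693 higher and 917 lower over all features (5.91% called). All 3-h light arrays were below all dark arrays in 16 members and above in 6, against 9.95% and 15.9% of all features. The 4 called were hspb1 (-0.77, SE 0.15, limma adjusted p = 0.0394), hspd1 (-0.43, SE 0.10, limma adjusted p = 0.0484), hsp90b1 (-0.38, SE 0.08, limma adjusted p = 0.0445) and dnaja3a (0.58, SE 0.13, limma adjusted p = 0.048). All 4 were also called at 12-h light, where they stood at -0.69, -0.62, -0.40 and 0.59; both comparisons share the 3 dark arrays. For hspa5 the difference at 3-h light was -0.45 (SE 0.10, limma adjusted p = 0.0504), close to the value at 12-h light. Of the endoplasmic reticulum stress genes 8 of 29 were called, 2 higher and 6 lower, and of the cochaperones 2 of 41, ptges3b (-0.89) and serpinh1b (-0.49). The count of 4 fell to 0 without any 1 of the 8 arrays other than TKO dark, and was again 4 without that array. Then hspb1 (limma adjusted p = 0.0601) and hspd1 (limma adjusted p = 0.0533) were no longer called, while hspa5 (limma adjusted p = 0.0412) and hspb2 (limma adjusted p = 0.0295) were.

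Compared with each other, 12-h and 3-h light gave 0 calls among the members by limma and 0.371% over all features (0.29% higher, 0.0808% lower). Of the members 6 had an unadjusted p under 0.05, beside 8.05% of all features. With trend and robust options limma also called 0 members, beside 0.665% of all features. The smallest adjusted p of a member was 0.278. The arrays did not overlap in 14 members, 7 in each direction, against 5.62% higher and 6.16% lower over all features. For hspa5 the difference was 0.01 (SE 0.10) and for hspe1 -0.10 (SE 0.28). The level of dnajc3a fell from 3-h to 12-h light in all genotypes, by about 0.10 to 0.13, without passing the test.

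The third question was how the knockouts differed from WT larvae across the 3 lightings. In DKO larvae 4 of 78 members were called, 3 higher and 1 lower, or 5.13% against 12.3% of all features (8.45% higher, 3.86% lower). In the deposited table the split was 3 and 0, beside 2012 higher and 877 lower over all features (10.6% called). In TKO larvae 9 were, 5 higher and 4 lower, against 22.5% of all features (9.57% higher, 12.9% lower). With median scaling the split was 6 and 3, beside 3125 higher and 2527 lower over all features (20.8% called). By overlap, 8 members had every DKO array above WT and 11 below (background 16.4% and 13.3%), and 8 had every TKO array above WT and 10 below (background 12.4% and 17.9%). After normexp background correction the shares were 14.1% of members and 16% of features in DKO, and 25.6% and 25.7% in TKO larvae, so the gap was not stable. The genes hsp90aa1.1 and dnaja2a were called in both knockouts, which share the WT arrays.

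The largest genotype difference of the set was in hsp90aa1.1, an HSP90 gene that zebrafish muscle uses to fold myosin. Its level was -0.58, -0.54 and -0.81 in WT (dark, 3-h and 12-h light), 0.94, 0.73 and 0.56 in DKO, and 0.43, 0.72 and 0.65 in TKO larvae. All 6 knockout arrays were above all WT arrays. The difference was 1.38 in DKO (SE 0.13, limma adjusted p = 0.00107), or 2.61-fold, and 1.24 in TKO larvae (SE 0.13, limma adjusted p = 0.00166), and both calls held whichever array was left out.

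The size rested on 1 of its 3 probes. That probe read -3.17, -3.08 and -3.51 in WT, 0.18, 0.28 and 0.25 in DKO, and -0.36, 0.08 and 0.05 in TKO larvae, a difference of 3.49 in DKO and 3.17 in TKO. The other probes differed by 0.35 and 0.30 in DKO and by 0.26 and 0.29 in TKO. With the brightest probe alone the differences were 0.30 (limma adjusted p = 0.189) and 0.29 (limma adjusted p = 0.143), and neither was called. All 3 probes gave the same direction.

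The neighbouring copy hsp90aa1.2, with 0 protein-coding genes between the pair, showed the same kind of split. One of its 4 probes differed by 1.05 in DKO and 0.74 in TKO, and the other 3 by -0.15 to -0.08 and by -0.52 to -0.32. Over its probes the differences were 0.18 (SE 0.13, limma adjusted p = 0.432) and -0.11 (SE 0.13, limma adjusted p = 0.549). Sequences were not compared here, so whether a probe reads both copies was not tested, and their values are uncertain. The muscle partner unc45b was at -3.76, -3.85 and -4.36 in WT, -2.83, -3.43 and -3.99 in DKO and -2.93, -3.49 and -3.37 in TKO larvae, and was called in TKO (0.73, SE 0.17, limma adjusted p = 0.0275; 0.052 without the TKO dark array). Of 16 muscle markers, 0 were called in DKO and 1 in TKO larvae (mybpc1, 0.66). In TKO larvae 4 of 8 exocrine pancreas, 2 of 7 neuron, 2 of 8 liver, 1 of 9 lens and 1 of 6 heart markers were called, beside 22.5% of all features. In DKO larvae 2 of 8 pancreas, 1 of 8 liver and 1 of 9 lens markers were called, beside 12.3% of all features. There all 6 heart markers were positive (median 0.29) and not called. Apart from the pancreas, most of these counts lay near the share of all features. Their part in the genotype differences was not tested.

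The second gene called in both, dnaja2a, a cytosolic partner of HSP70, was also split by probe. Its level was -0.21, -0.18 and -0.06 in WT, 0.26, 0.27 and 0.20 in DKO, and 0.19, 0.27 and 0.22 in TKO larvae, with differences of 0.39 (SE 0.08, limma adjusted p = 0.022) and 0.38 (SE 0.08, limma adjusted p = 0.0197). Of its 4 probes, 1 differed by 1.13 in DKO and 1.14 in TKO, 1 by 0.53 in both, and the other 2 by -0.01 and -0.08 in DKO and by -0.05 and -0.11 in TKO. The knockout arrays were far apart from WT on 2 probes and not on the others.

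**Figure D3:**
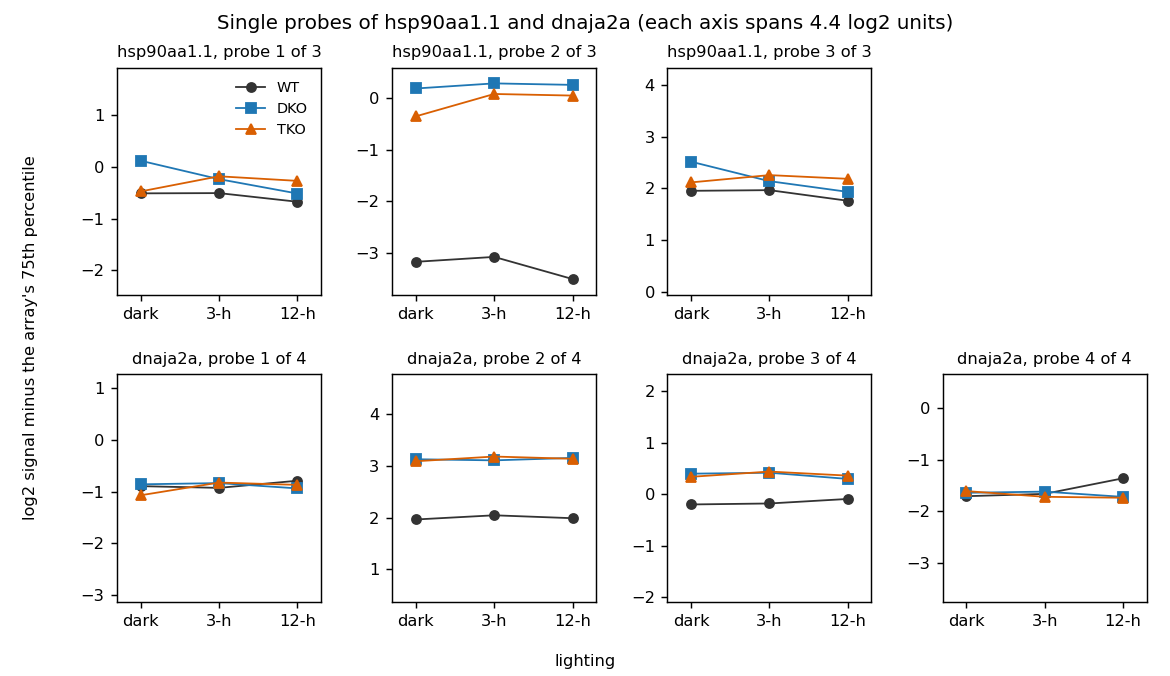
Level at each probe of hsp90aa1.1 (3 probes) and dnaja2a (4 probes) on the 9 arrays, by lighting and genotype, each vertical axis of the same length in log2 units. WT lies apart by 3.49 (DKO) at 1 probe of hsp90aa1.1 and by 1.13 at 1 probe of dnaja2a, and the remaining probes differ by 0.53 or less.

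Constitutive cytosolic HSP90, hsp90ab1, was lower in TKO larvae at all 7 probes. Its level was 6.33, 6.56 and 6.48 in WT, 6.15, 6.29 and 6.25 in DKO, and 5.72, 6.17 and 6.08 in TKO larvae. The difference in TKO was -0.47 (SE 0.09, limma adjusted p = 0.0145), from -0.94 to -0.24 over the probes, and in DKO -0.23 (SE 0.09, limma adjusted p = 0.163; 0.0289 without the TKO dark array). All 6 knockout arrays were below the WT arrays. The chaperonin subunits cct2 (-0.39, SE 0.08, limma adjusted p = 0.0191) and cct3 (-0.27, SE 0.08, limma adjusted p = 0.0439) were lower in TKO larvae at all of their 5 and 3 probes. The remaining 6 subunits were negative and not called, from -0.25 (cct4) to -0.05 (tcp1), beside a median of -0.06 over all features. HSC70, hspa8, was at -0.29 (SE 0.09, limma adjusted p = 0.0657).

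The other calls in TKO larvae were higher for hspb2, dnajb6b and dnajc3b and lower for dnajc8. For hspb2, whose levels are given above, every knockout genotype was above WT at each lighting. TKO differed by 0.90 (SE 0.15, limma adjusted p = 0.00993), or by 0.69 without the TKO dark array (limma adjusted p = 0.00402). This call held whichever array was left out, but it rests on 1 probe, which leaving out arrays does not check. Of dnajb6b (0.34, SE 0.09, limma adjusted p = 0.0368) the TKO and WT arrays overlapped. For dnajc3b (0.30, SE 0.08, limma adjusted p = 0.0394) the 3 probes ranged from 0.02 to 0.62. The level of dnajc8, whose human product sits in the spliceosome, was 1.65, 1.58 and 1.53 in WT, 1.26, 1.21 and 1.13 in DKO, and 0.93, 1.2 and 1.22 in TKO larvae, with a TKO difference of -0.47 (SE 0.11, limma adjusted p = 0.0242).

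In DKO larvae the remaining calls were dnajc7, which links HSP70 and HSP90, and mitochondrial hspa9. The single probe of dnajc7 read 2.46, 2.59 and 2.61 in WT, 3.00, 2.93 and 3.08 in DKO, and 2.65, 2.89 and 2.89 in TKO larvae, a DKO difference of 0.45 (SE 0.09, limma adjusted p = 0.0168). For hspa9 the levels were -1.38, -1.56 and -1.34 in WT and -1.75, -1.82 and -1.63 in DKO larvae, with a difference of -0.31 (SE 0.07, limma adjusted p = 0.0381). Over both knockouts, 11 members had all 6 arrays on 1 side of the WT arrays, 4 above and 7 below, or 5.13% and 8.97% of members against 9.16% and 8.05% of all features.

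Stress genes outside the family gave 1 large genotype difference. The early gene fosab was called in both knockouts (1.70 in DKO, SE 0.34, limma adjusted p = 0.0212; 2.18 in TKO, SE 0.34, limma adjusted p = 0.0076), and it was the only call among 14 early stress genes tested in each. In DKO larvae 1 of 41 cochaperones (bag2, 0.53) and 1 of 29 endoplasmic reticulum stress genes (calr, 0.79) were called, beside 12.3% of all features. In TKO larvae 5 of the 29 were called, 3 higher (calr, 0.79, the largest) and 2 lower (ddit3, -0.42, and pdia3, -0.32). Over all features 22.5% were called there. Of the cochaperones 4 were called in TKO larvae, all higher. The largest were cryaba (0.95, SE 0.24, limma adjusted p = 0.0356; 0.0912 without the TKO dark array), unc45b and grpel1 (0.56, SE 0.15, limma adjusted p = 0.0406). In WT larvae cryaba was at -7.14 in the dark and -6.60 at 3-h light. Both lay under the lowest signal well above background of those arrays (-6.37 and -6.36), so part of its WT signal was at background. Since each genotype was hybridised and scanned on a slide of its own, genotype and slide cannot be told apart in any of these.

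Counts in the genotype comparisons also hung on single arrays. In DKO larvae the count of 4 became 1 without any 1 of the 3 WT arrays, DKO dark or DKO 12-h light (background 5.5% to 7.58%). It became 2 without DKO 3-h light (6.94%) and 12 without TKO dark (24.9%). In TKO larvae the count of 9 became 2 without WT dark (background 9.14%) or WT 3-h light (7.61%). It became 4 without WT 12-h light (9.12%), TKO 3-h light (12.8%) or TKO 12-h light (12.5%), and 11 without TKO dark (24.3%). The share of all features called thus moved as well. TKO against DKO gave 0 calls by limma, with 1.31% of all features called (0.529% higher, 0.782% lower). An unadjusted p under 0.05 was seen in 7 members, beside 20.8% of all features. With trend and robust options limma called 0 members, beside 1.6% of all features. The smallest limma adjusted p of a member was 0.178. The arrays of both knockouts did not overlap in 1 member that was higher in TKO and 6 that were lower, against 4.87% and 12.2% of all features.

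Whether the knockouts changed the response to light was tested as an interaction, the mean of both light arrays minus the dark array, compared between genotypes. The lone dark array of each genotype is fitted exactly in this model. Its residual spread comes only from the light arrays of a genotype, and the dark arrays are taken to vary like them. No member and no other feature was called, 0.0% in each of the 3 comparisons, by limma. At an unadjusted p under 0.05 2 members passed in the DKO and WT pair, 15 in the TKO and WT pair and 17 in the pair of knockouts, against 3.64%, 24.1% and 26% of all features. With trend and robust options limma called 0, 4 and 5 members (0.0%, 4.76% and 5.66% of all features), and after normexp background correction 0, 5 and 8 (0.0%, 3.96% and 5.51%). The smallest adjusted p were 1.0, 0.0844 and 0.0803 in the same order, and the TKO dark array is the only dark array of its genotype, so no value without it exists. Between TKO and WT larvae the response of dnajc19, a part of the mitochondrial import motor, differed by -1.35 and that of hspb6 by 1.38. For dnajc19 the TKO dark array read 3.24 and all other arrays 1.73 to 1.90, so its difference rests on that array.

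Single arrays show where values stood out. Each light array was set against the dark array of its genotype, 12-h against 3-h light, and each knockout array against the WT array of the same lighting. These are 15 comparisons of 1 array with 1, so they carry no test and compare those arrays only. In all, 14 of 78 members were at least 2-fold apart in any of them, and 7 when the 3 comparisons with the TKO dark array were left out. No share of all features is given for these 2 counts. As the nearest measure, a range above 1 over the 9 arrays was seen in 19.2% of members and 31.9% of all features. Without the TKO dark array the shares were 8.97% and 16.9%.

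**Figure D4:**
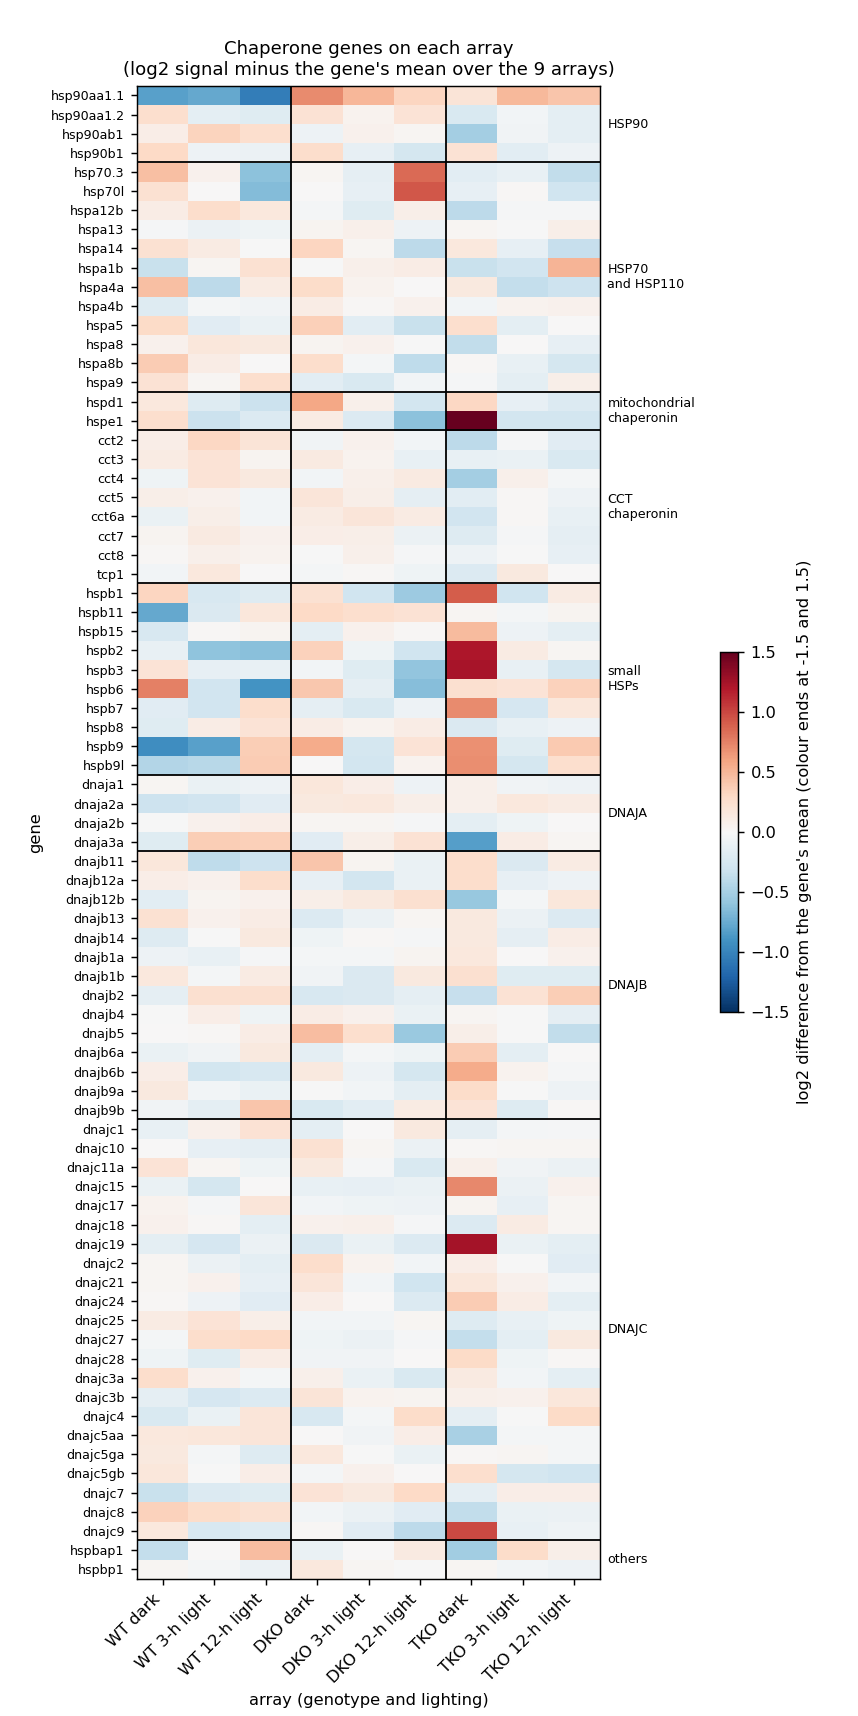
Level of the 78 members on the 9 arrays as the difference from each gene's mean (log2, colour scale ending at -1.5 and 1.5), with families separated by horizontal lines and genotypes by vertical lines. The TKO dark column stands out in hspe1, hspb2, hspb3 and dnajc19, and the DKO 12-h light column in hsp70l and hsp70.3.

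The widest ranges over the 9 arrays were in hspe1 (2.12), hspb2 (1.84), hspb3 (1.82), hsp90aa1.1 (1.75) and hspb6 (1.65). The median range was 0.57 over the members and 0.78 over all features, and 0.44 and 0.54 without the TKO dark array. A range above 1 was seen in 19.2% of members and 31.9% of features.

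The inducible HSP70 genes gave a pattern that the additive model averages away. In darkness hsp70l was at 0.74 in WT, 0.53 in DKO and 0.39 in TKO larvae; at 3-h light it was at 0.53, 0.40 and 0.54. At 12-h light WT had -0.13 and TKO 0.22, while DKO had 1.46. The DKO 12-h light array was thus the highest of all 9 and the WT 12-h light array the lowest, 1.59 apart (log2). Against its own dark array DKO rose by 0.93 at 12-h light and WT changed by -0.87. The gene hsp70.3 followed, with -1.36, -1.75 and -2.43 in WT, -1.79, -1.95 and -0.97 in DKO, and -1.98, -1.93 and -2.18 in TKO larvae. Its 3 probes and the 2 of hsp70l each had the DKO 12-h light array highest. A probe of one gene may read the other, which was not tested. Of all features, 4.43% were at least 2-fold apart between the 12-h light arrays of DKO and WT; among members they were hsp70l, hsp70.3 and hsp90aa1.1. Of the 14 cytosolic heat-shock genes, only these 2 were highest on the DKO 12-h light array. There hspb1 was at 0.56, dnajb1a at -1.89 and hsp90aa1.2 at 0.22, and on the WT 12-h light array they were at 0.92, -1.95 and -0.17. The interaction for DKO against WT, which averages both light arrays, was 0.95 for hsp70l (SE 0.68, limma adjusted p = 1.0) and 1.06 for hsp70.3 (SE 0.64, limma adjusted p = 1.0).

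In WT larvae hspb6 (HSP20) had the widest change with light, from -4.53 in the dark to -5.58 at 3-h and -6.19 at 12-h light. DKO larvae went the same way, with -4.89, -5.43 and -5.93, while TKO larvae stayed at -5.06, -5.09 and -4.95. These levels come from 1 dim probe. It stood well above background on all 9 arrays, but the lowest such signal of the WT 12-h light array was -6.77. The ratio to the dark array was -1.65 in WT and -1.04 in DKO at 12-h light, and at 12-h light TKO exceeded WT by 1.23. Past 2-fold at WT 12-h light were also hsp70.3 (-1.07) and hspb9 (1.30), so 3 members passed against 2.12% of all features. At WT 3-h light it was hspb6 alone (-1.04; background 1.26%), and at DKO 12-h light hspb6 and dnajb5 (-1.02; background 2.69%). The 1 probe of dnajb5 was also dim, at -6.07 on the DKO 12-h light array, whose lowest signal well above background was -6.84. No member passed at DKO 3-h light (background 0.823%), and 12-h against 3-h light gave hspb9 in WT (1.19; background 0.875%), hsp70l in DKO (1.06; background 0.89%) and none in TKO larvae (background 0.663%).

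The small heat-shock gene hspb9 differed most between dark arrays. Its level was -0.47, -0.36 and 0.83 in WT, 1.01, 0.20 and 0.66 in DKO, and 1.14, 0.27 and 0.85 in TKO larvae. WT was below both knockouts in the dark and at 3-h light, and level with them at 12-h light. In darkness DKO exceeded WT by 1.49 and TKO by 1.62. In DKO dark hsp90aa1.1 (1.52) and hspb11 (1.07) were the other members past 2-fold, against 3.33% of all features. The 1 probe of hspb11 was dim, at -5.98 on the WT dark array, whose lowest signal well above background was -6.37. At 3-h light hsp90aa1.1 alone passed in DKO (1.27; background 3.04%) and in TKO (1.26; background 2.99%), and at 12-h light TKO had hsp90aa1.1 (1.46) and hspb6 (background 3.79%). In limma hspb9 was not called for DKO (0.62, SE 0.30, limma adjusted p = 0.253) or TKO larvae (0.76, SE 0.30, limma adjusted p = 0.116).

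**Figure D5:**
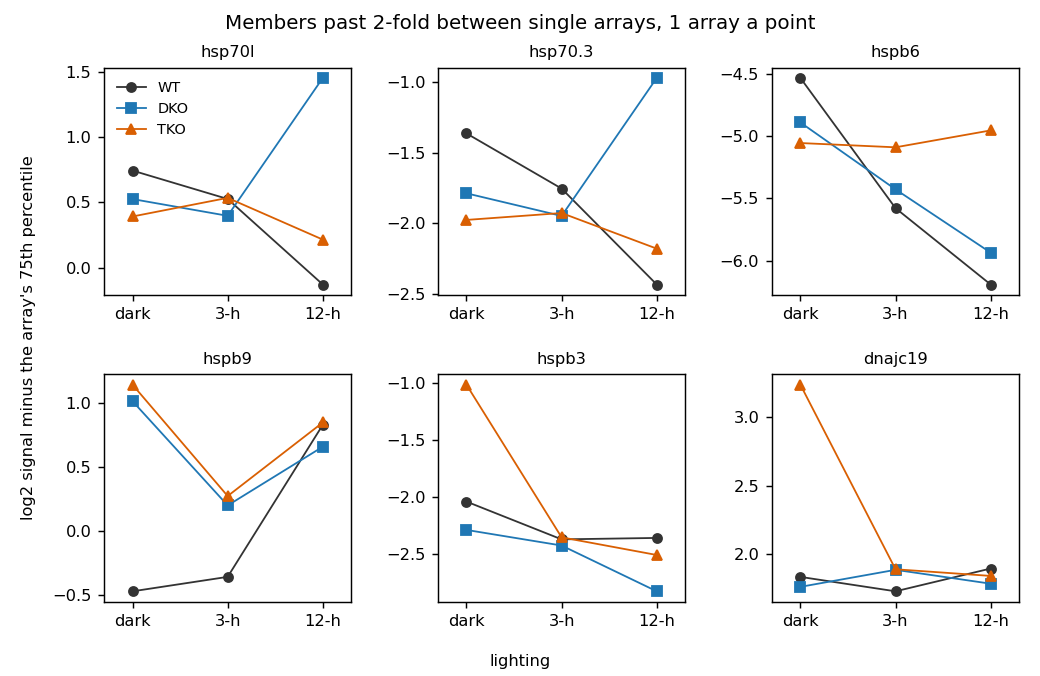
Level on each array for 6 members past 2-fold between single arrays, by lighting and genotype, 1 array per point. The DKO 12-h light array lies highest in hsp70l (1.46) and hsp70.3 (-0.97), TKO stays level in hspb6, and the TKO dark array lies alone in hspb3 (-1.01) and dnajc19 (3.24).

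The TKO dark array carried the most members past 2-fold. Against WT dark it had 7, all higher, 8.97% of members beside 8% of all features. The largest were hspb9 (1.62), dnajc19 (1.40) and hspb2 (1.33). For dnajc19 the array read 3.24 and the other 8 arrays 1.73 to 1.90. For hspb3, which pairs with hspb2 in mammals, it read -1.01 and the others -2.83 to -2.04. Set against this array, TKO 3-h light had 6 members past 2-fold and TKO 12-h light 5, all lower, with a background of 6.43% and 8.1%. The lowest were hspe1 (-1.78 at both), dnajc19 (-1.35 and -1.39) and hspb3 (-1.34 and -1.5). In WT and DKO larvae dnajc19 differed from its dark array by 0.12 or less at either light. The cochaperone list had its highest summed level on the TKO dark array (6.61, against 5.59 to 5.87 on the others). So did the early stress (3.89), liver (8.72), heart (3.81), red blood cell (7.60), skeletal muscle (10.77) and neuron (5.73) lists. Only the endoplasmic reticulum stress, exocrine pancreas and lens lists were highest on another array. The part of these lists in the values above was not tested.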

How the data were processed

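RNA from whole larvae had been hybridised to Agilent 1-colour zebrafish arrays, 1 array for each of 9 conditions. Per the file headers, the authors' intensity values had been background-subtracted and detrended by Agilent Feature Extraction 11.5.1.1, with no normalization between arrays. The deposited value table held the same intensity values, each array multiplied by 1 constant of unstated origin. Control spots and spots with outlier flags were left out. Signals were taken as log2, the array's 75th percentile was subtracted, spots of a probe and then probes of a gene were averaged, and accessions were paired with RefSeq symbols (GRCz12tu table): 26094 of 43603 probes matched. Features well above background on at least 3 arrays (27228 of 30952) were fitted with limma 3.58.1 in R 4.3.3 (Python 3.11.15, pandas 2.3.3 and numpy 2.4.6 for the rest). Light responses were compared in a model of genotype by lit state with 3 residual degrees of freedom. For ratios of single arrays, dim signals were first set to a floor, the array's lowest signal that still stood well above background.

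The fit was tested on simulated data of 27226 features, 200 of them changed. Noise was independent and, for each feature, of the same size on every array. No simulated array stood apart as TKO dark does, and far fewer features were changed than were called here. The false calls below therefore do not measure how many calls in these data are false. At 12-h light against darkness it recovered 90 of 100 features changed 4-fold and 62 of 100 changed 2-fold, with 6 false calls. For the difference in light response between TKO and WT it recovered 66 and 3, with 4 false calls. The number of arrays, 1 a condition, limits the precision.

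The members and lists were chosen with earlier results of these data known. Genes were named by rule: called members with the largest differences (up to 6 higher and 6 lower a comparison), members past 2-fold between single arrays (up to 3 each way), a fixed set of well-known chaperones, the 5 widest ranges, and called genes of the companion lists (up to 3 each way). Alternatives were median scaling, quantile normalization, normexp with an offset of 50, the deposited table, the brightest probe of each gene, filters, limma options, array weights, other model terms, other fold thresholds and leaving out each array. Promoters and proteins were not analysed here.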

Additional observations from a re-analysis of the deposited data

How the results depend on the processing

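Of 32 called pairs of member and comparison, 15 kept the call under all 9 alternatives of scaling, background, probes, filter and limma options (not counting the changes of model terms below), 3 kept it whichever array was left out, and 0 changed sign. No paired analysis was possible because each condition had 1 array and the labels give no replicate numbers. In the counts that follow, the share of all features called stands in brackets. At 12-h light the count of 15 became 25 with array weights (31.4%) and 2 with no term for genotype (5.27%). At 3-h light the count of 4 became 2 with the deposited table (4.72%), 9 with normexp (9.43%) and 7 with the brightest probe (6.81%). It became 0 with no filter (2.53%), 9 with the filter on all 9 arrays (10.3%) and 9 with trend and robust options (10.5%). With array weights it was 16 (24.9%) and with no term for genotype 0 (0.0294%). For DKO against WT the count of 4 became 11 with normexp (16%) and 13 with array weights (26.6%). For TKO against WT the count of 9 became 20 with normexp (25.7%), 19 with array weights (37.2%) and 3 with no term for lighting (8.23%). For the light response between TKO and WT, 0 became 5 with normexp (3.96%) and 4 with trend and robust options (4.76%). Between TKO and DKO it became 8 (5.51%) and 5 (5.66%). The 14 members past 2-fold between single arrays became 31 at 1.5-fold, 4 at 3-fold and 9 with normexp, given without a share of all features. With 1 array left out the counts ranged from 0 to 22 at 12-h light (3.77% to 25.6%) and from 0 to 4 at 3-h light (0% to 9.64%). They ranged from 1 to 12 for DKO (5.5% to 24.9%) and from 2 to 11 for TKO (7.61% to 24.3%). The causes were not tested. The few arrays leave 4 residual degrees of freedom, so small differences could be missed.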
